A study of Mus musculus with 12 samples.

Results

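The enzymes that build triglyceride from glycerol-3-phosphate or monoacylglycerol were examined here through 9 genes, Gpam, Agpat2, Agpat3, Lpin1, Lpin2, Dgat1, Dgat2, Mogat1 and Mogat2. Every peak of open chromatin that the deposited tables assign to one of these symbols was taken, which gave 69 of 58558 peaks in brown fat and 42 of 39558 peaks in inguinal white fat (iWAT). Peaks came from ATAC-seq, in which a transposase inserts sequencing adapters into accessible DNA. Brown fat was taken from 3 flox mice, which carry floxed alleles of BAF60a, which encodes a component of the SWI/SNF remodelers of chromatin, and from 3 AKO mice, which carry these alleles with the Adiponectin-Cre transgene, so that deletion is limited to adipocytes while the other cells of the tissue keep the gene. Each brown fat sample was 1 mouse, and neither the age nor the housing temperature of these mice was given with the samples. The iWAT samples came from flox and AKO mice of 6 to 8 months kept at 10 °C for 7 days after a stepwise cooling. It was pooled from 6 mice per genotype and divided into 3 aliquots, so that the spread between iWAT samples, and any p from it, is technical. The series also states that each sample joins technical replicates of the transposase reaction. Samples of both genotypes were of the C57BL/6 strain.

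Triglyceride is assembled in the endoplasmic reticulum by the stepwise transfer of fatty acids onto glycerol-3-phosphate, with a dephosphorylation before the last transfer. In fat cells this route fills the lipid droplets, and in brown fat the stored triglyceride is also a fuel for heat production. A side route starts from monoacylglycerol and is best known from the intestine.

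Sequence is shown for 2 brown fat peaks at Dgat2 that carried low values in AKO mice, described further on. Each holds a match, with 2 mismatches, to the response element of PPARγ, the nuclear receptor that drives adipocyte gene expression. Dgat2 peaks 16.97 and 21.6 kb upstream, also low in AKO mice, hold matches with 3 mismatches and are not shown. Each run is the plus strand of mm10, read 5′ to 3′, over the 300 bases at the centre of the peak, and capitals mark the 13 bases closest to a direct repeat of AGGTCA with 1 base between the repeats. Differences are counted from 1 at the 5′ end of that element. The intron 1 match differs from the element by T4A and G10T, and the upstream match by T4C and T11A. A match of letters describes the sequence and is no evidence of binding.
Dgat2 intron 1, chr7:99172058-99172357, plus strand: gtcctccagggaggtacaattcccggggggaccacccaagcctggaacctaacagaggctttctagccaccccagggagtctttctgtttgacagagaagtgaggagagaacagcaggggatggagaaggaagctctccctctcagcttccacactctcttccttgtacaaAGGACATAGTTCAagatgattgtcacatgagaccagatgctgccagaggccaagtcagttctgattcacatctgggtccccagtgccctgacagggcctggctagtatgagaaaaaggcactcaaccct
Dgat2 upstream, chr7:99202090-99202389, plus strand: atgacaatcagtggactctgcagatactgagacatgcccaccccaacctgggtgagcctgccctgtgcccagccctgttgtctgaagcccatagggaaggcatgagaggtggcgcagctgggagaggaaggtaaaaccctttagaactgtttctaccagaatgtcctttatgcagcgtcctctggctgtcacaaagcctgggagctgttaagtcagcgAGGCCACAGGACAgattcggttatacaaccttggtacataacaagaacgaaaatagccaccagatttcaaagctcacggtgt

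Values are the reads of a peak over the size factor of the sample, called normalized reads. Reads in peaks ranged from 6336670 to 27500738 in brown fat, with AKO replicate 2 the shallowest, and from 4066720 to 6691161 in iWAT. In brown fat, principal component 1 (PC1) of all peaks held 55.6% of the variance, and its score was lowest in flox replicate 1, the deepest sample, and highest in AKO replicate 2. As in the study, this score was a covariate in brown fat, so that fitted changes need not match ratios of means. The scores were −98.2, −41.8 and 14.6 in flox and −0.62, 112 and 13.5 in AKO mice. Apart from flox replicate 3, every flox score lay below every AKO score, so PC1 is partly confounded with genotype. The part of this in the fits without flox replicate 3 was not tested. The targeted gene, Smarcd1, was checked first. Its peak at chr15:99704113-99704521 had 136, 201 and 185 normalized reads in flox and 23.7, 57.9 and 26.9 in AKO mice, which separates the genotypes as labelled, while no iWAT peak assigned to Smarcd1 lay there. All 6 adipocyte markers (Adipoq, Fabp4, Plin1, Cidec, Lipe and Pparg) had peaks in both tissues. Their summed level was 19561 to 21174 in flox and 13389 to 18238 in AKO brown fat, and that of the 5 brown adipocyte markers was 19137 to 22595 and 12654 to 13936. Both marker sums were lower in every AKO mouse. The 5 endothelial markers overlapped (2391 to 2590.0 and 2308 to 2681), as did skeletal muscle markers (1082 to 1251 and 1037 to 1348, 4 of 5 with peaks, without Ckm) and the only immune marker with a peak, Adgre1, at 112 to 188 and 126 to 174. The 4 fibroblast markers, also lower in every AKO mouse, ran from 3009 to 3163 in flox and from 2851 to 2976 in AKO. The part of these shifts in the results at the triglyceride genes was not tested, and fewer adipocytes cannot be told apart from less open chromatin per adipocyte.

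In brown fat, the AKO values lay below the flox values on average at most peaks of the triglyceride synthesis genes, called member peaks here, and the neighbors Dgat2 and Mogat2 held most of the peaks that passed any of the tests. The limma log2 change was below 0 at 52 of 69 peaks (75.4%), against 49.1% of all brown fat peaks, with a median of −0.20 against 0.00666. At 19 of 69 peaks, or 27.5%, the highest AKO mouse lay under the lowest flox mouse, while this held for 8.84% of all peaks. At 0 of 69 peaks did all AKO mice lie above all flox mice, against 8.77% of all peaks. Of these 19 peaks, 10 were at Dgat2 and Mogat2. Without those genes, 38 of 55 peaks were below 0, with a median of −0.12 and 9 peaks without overlap. With total reads in peaks as the normalization, 14 of the 69 peaks separated the genotypes in either direction, a count not made for all peaks.

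Genotypes were compared with limma on log2(normalized reads + 1) over all peaks, with p-values adjusted after Benjamini and Hochberg and called under 0.1, and limma called 0 of 69 member peaks and 0% of all peaks. The smallest limma adjusted p among the members was 0.417. At an unadjusted p under 0.05, 14 member peaks were lower and 1 was higher, against 5.59% and 3.46% of all peaks. DESeq2, run on whole reads recovered from the values and with PC1 in the model, gave an adjusted p to 56 of the 69 peaks and called 9 of them lower and 0 higher, against 0.298% and 0.11% of the peaks it tested. The edgeR quasi-likelihood test called 2 lower and 0 higher, against 0.114% and 0.029%. The 9 DESeq2 calls were 5 peaks of Dgat2, 2 of Mogat2, 1 of Dgat1 and 1 of Lpin1. Without flox replicate 1, 2 or 3, DESeq2 called 2, 2 or 0 member peaks, without AKO replicate 1, 2 or 3 it called 2, 6 or 3, and without the PC1 covariate it called 3, all lower, against 0.517% of all peaks lower and 0.512% higher. Those 3 were the Dgat2 peaks at the start site and 16.97 kb upstream and the most open Mogat2 peak. The share of all peaks that DESeq2 called with a sample left out was not counted, so those member counts stand without a background. With 3 against 3 samples, an exact permutation test of a single peak cannot give a two-sided p below 0.1.

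**Figure D1:**
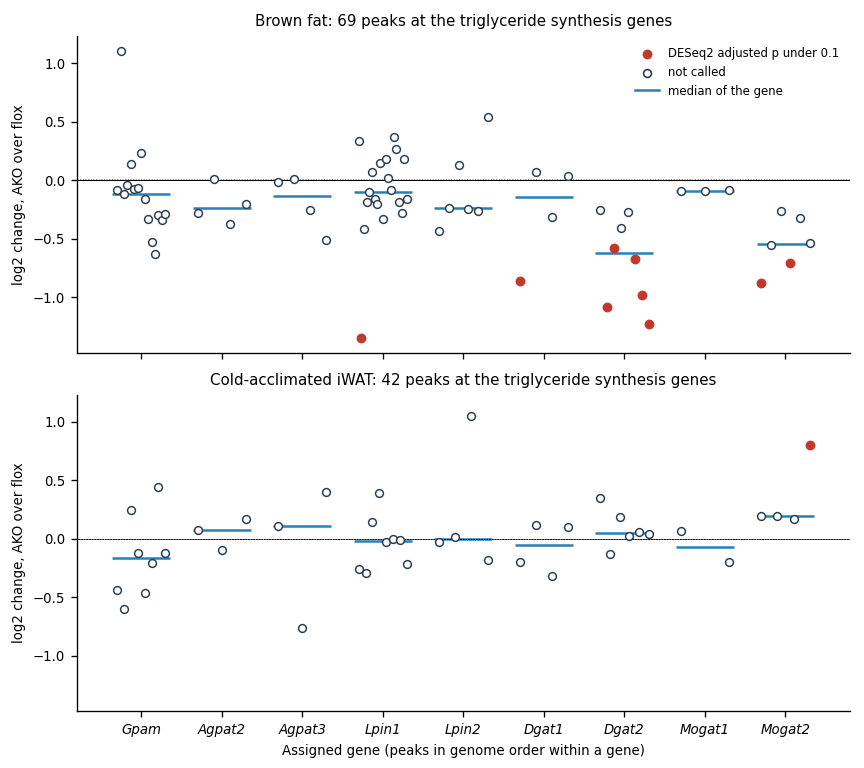
Limma log2 change (vertical axis, AKO over flox) of each peak, by assigned gene (horizontal axis), in brown fat (top, 69 peaks) and iWAT (bottom, 42 peaks). Filled points passed a DESeq2 adjusted p of 0.1, horizontal lines are the medians per gene, and the dotted line is the median of all peaks. In brown fat the 8 Dgat2 and 6 Mogat2 points lie below 0, while in iWAT 9 of the 10 points of these genes lie above 0.

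Dgat2 encodes diacylglycerol O-acyltransferase 2, which adds the last fatty acid to diacylglycerol. The gene lies on the minus strand at chr7:99153658-99182719, and the brown fat table assigns 8 peaks to it. At the peak over its start site, chr7:99182290-99183229, there were 1224, 1063 and 1097 normalized reads in flox and 745, 498 and 661 in AKO mice. The AKO and flox mice did not overlap, and the log2 change was −0.58 (SE 0.19, limma adjusted p = 0.50, DESeq2 adjusted p = 0.0986). The peak in intron 1, chr7:99171997-99172420, had 239.8, 348 and 407 normalized reads in flox and 188, 228 and 182 in AKO. It had the smallest limma p of the gene, its groups did not overlap, and its log2 change was −1.09 (SE 0.20, limma adjusted p = 0.417, DESeq2 adjusted p = 0.00160). This is the intron peak whose sequence is printed. DESeq2 called it in 4 of the 6 fits with a sample left out, not without flox replicate 2 or 3, and called the start site peak in 1 of them, without AKO replicate 2. Without the PC1 covariate the DESeq2 log2 change of the intron 1 peak was −0.74 (DESeq2 adjusted p = 0.125), no longer a call, and that of the start site peak −0.82 (DESeq2 adjusted p = 0.00566). Without flox replicate 3 the limma change of the start site peak was −0.35.

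Upstream of Dgat2, 3 more peaks passed the DESeq2 threshold. At chr7:99198723-99200655, 16.97 kb upstream of the start site, there were 745, 746 and 659.7 normalized reads in flox and 466, 549 and 411 in AKO mice, a log2 change of −0.67 (SE 0.21, limma adjusted p = 0.482, DESeq2 adjusted p = 0.0844). The AKO values all lay below the flox values, as they did at the next peaks outward. The peak 19.5 kb upstream, chr7:99202042-99202438, which holds the upstream sequence printed, had 205, 252 and 254 normalized reads in flox and 144, 176 and 117 in AKO. Its log2 change was −0.98 (SE 0.20, limma adjusted p = 0.431, DESeq2 adjusted p = 0.0433). At chr7:99204237-99204497, 21.6 kb upstream, the values were 108, 151 and 252 normalized reads in flox and 93.8, 92.7 and 87.3 in AKO, with a log2 change of −1.23 (SE 0.31, limma adjusted p = 0.440, DESeq2 adjusted p = 0.0438). The flox values of this peak spread widely, and the lowest of them was near the AKO values. Of these upstream peaks, only the last was called in any fit with a sample left out, in 1 of 6, and its limma change was −0.67 without flox replicate 3. Without the PC1 covariate the DESeq2 change, from the nearest to the farthest, was −0.60 (DESeq2 adjusted p = 0.0820), −0.71 (DESeq2 adjusted p = 0.138) and −0.89 (DESeq2 adjusted p = 0.172), so that only the nearest was called. The other 3 Dgat2 peaks had log2 changes of −0.41, −0.27 and −0.26 and were not called, with no overlap between the genotypes at the former pair.

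Mogat2 encodes monoacylglycerol O-acyltransferase 2, the main enzyme of the monoacylglycerol route in the intestine, and lies next to Dgat2 on the same strand, at chr7:99219084-99238619. Its most open peak in brown fat, chr7:99214781-99215899, lies 23.3 kb downstream of its start site, between the genes. There were 963, 900.0 and 903 normalized reads in flox and 483, 498 and 497 in AKO mice at this peak. The AKO mean was 0.535 of the flox mean, the replicates of each genotype lay close together, and the log2 change was −0.88 (SE 0.17, limma adjusted p = 0.417, DESeq2 adjusted p = 7.85e-05). No other member peak had a smaller DESeq2 adjusted p, and the call was lost only without flox replicate 3 (DESeq2 adjusted p = 0.269). Without the PC1 covariate its DESeq2 change was −0.90 (DESeq2 adjusted p = 3.80e-05). The intron 2 peak, chr7:99229475-99230630, had 538, 747 and 867 normalized reads in flox and 466, 518 and 557 in AKO mice, with overlap between the genotypes and a log2 change of −0.71 (SE 0.23, limma adjusted p = 0.490, DESeq2 adjusted p = 0.0844). It was called without AKO replicate 2 or 3 and in no other fit with a sample left out, and not without the PC1 covariate, with a change of −0.48 (DESeq2 adjusted p = 0.291). Over the Mogat2 start site, chr7:99238474-99238761, signal was low, with 67.9, 91.6 and 100.90 normalized reads in flox and 75.3, 104 and 85.4 in AKO. These groups overlapped widely, and the log2 change of −0.33 (SE 0.18, limma adjusted p = 0.639) was 0.031 without the PC1 covariate. The other 3 peaks of Mogat2 had log2 changes from −0.55 to −0.26, with no overlap at 2 of them.

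**Figure D2:**
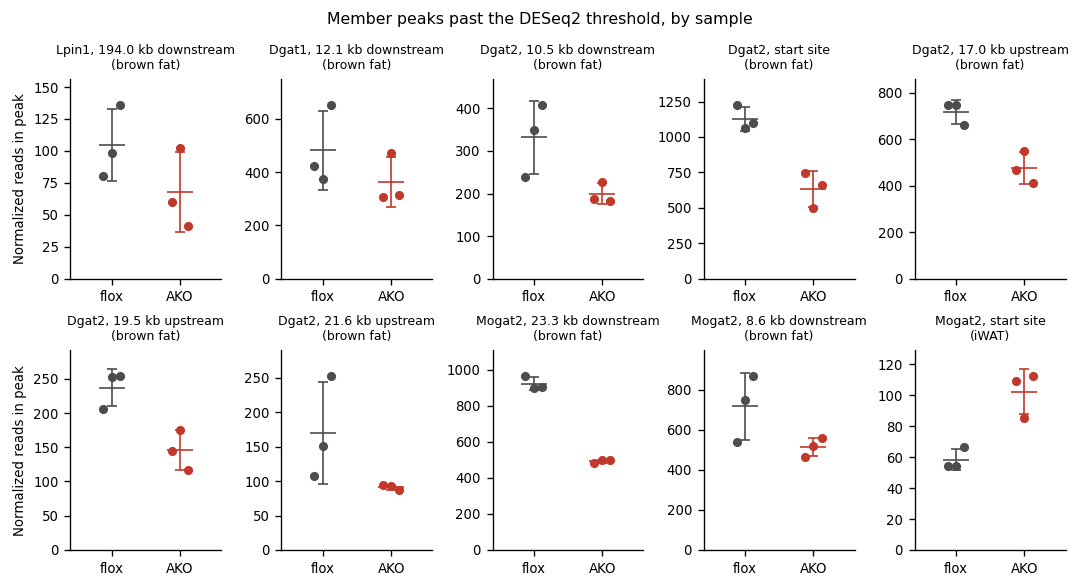
Normalized reads (vertical axis, starting at 0) in each flox and AKO sample at the 9 brown fat peaks and the 1 iWAT peak of member genes with a DESeq2 adjusted p under 0.1, with distances from the nearest start site of the gene. Points are samples, and bars are mean ± SD (n = 3). At the Mogat2 peak 23.3 kb downstream, the flox mice lie between 900.0 and 963 and the AKO mice between 483 and 498, while at the Lpin1, Dgat1 and Mogat2 (8.57 kb downstream) peaks of brown fat the groups overlap.

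The Dgat2 and Mogat2 peaks are 14 neighboring peaks of the brown fat table over 81.8 kb and share their surroundings, so they are not separate observations. All 14 had a limma log2 change below 0 with the PC1 covariate, from −1.23 to −0.26 (median −0.56). The count was 13 of 14 without the covariate and 12 of 14 without flox replicate 3, and 14 of 14 with total reads in peaks or TMM factors as normalization. On the far side of Mogat2, the 9 peaks of Map6 and Serpinh1 had a median of 0.11, with 7 above 0. Within the Dgat2 gene, the table assigns 2 further peaks to Uvrag, the next gene, and these were singled out after their values were seen. One, chr7:99153856-99155779, had 1371, 1363 and 1629.9 normalized reads in flox and 774, 1031 and 972 in AKO mice, with a log2 change of −0.86 (SE 0.19, limma adjusted p = 0.436, DESeq2 adjusted p = 0.000130). The other, chr7:99161140-99162346, had 1058, 1117 and 1605 normalized reads in flox and 789.7, 981 and 1037 in AKO, with a log2 change of −0.68 (SE 0.23, limma adjusted p = 0.504, DESeq2 adjusted p = 0.0677). The genotypes did not overlap at either peak. The remaining 7 Uvrag peaks in the plotted stretch lay at −0.95 to 0.34.

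**Figure D3:**
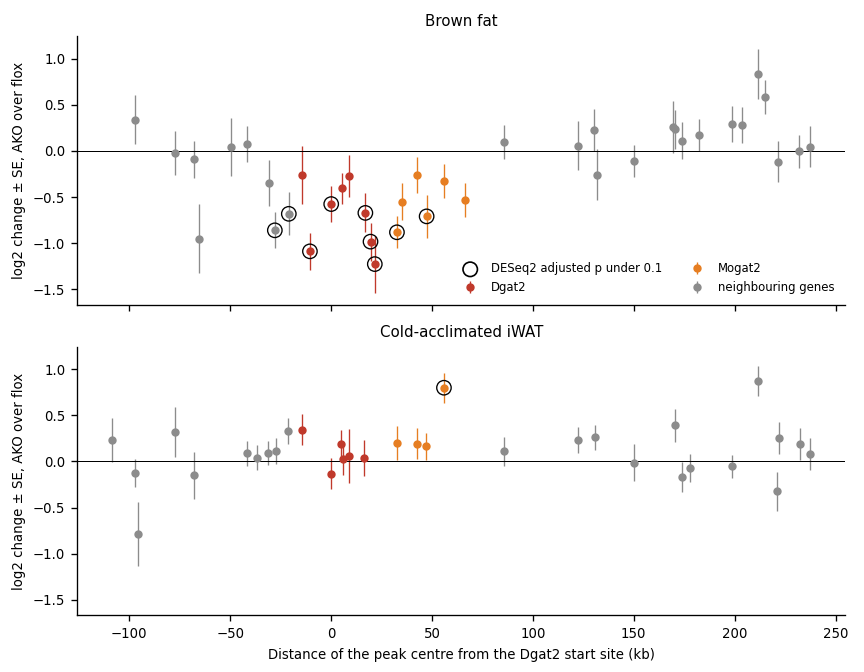
Limma log2 change ± SE (vertical axis, AKO over flox) of each peak against the distance of its centre from the Dgat2 start site in kb (horizontal axis), in brown fat (top) and iWAT (bottom). Red and orange mark peaks assigned to Dgat2 and Mogat2, gray marks those of neighboring genes, and rings mark a DESeq2 adjusted p under 0.1. In brown fat the points from −27.9 to 66.4 kb lie below 0, and the points of Map6 beyond lie near 0.

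Dgat1, at chr15:76502015-76511953, encodes the other diacylglycerol O-acyltransferase. At its start site in brown fat, chr15:76511462-76512432, there were 1565, 1292 and 1109 normalized reads in flox and 1205, 761 and 1091 in AKO mice. This was the most open Dgat1 peak, its groups overlapped, and its log2 change of 0.036 (SE 0.17, limma adjusted p = 0.965) turned to −0.39 without the PC1 covariate. The peak 12.1 kb downstream of the start site, chr15:76499228-76500538, lies within the neighboring gene Hsf1 and had 423, 372 and 651 normalized reads in flox and 305, 471 and 314 in AKO. DESeq2 called it lower with the covariate although the groups overlapped, with a log2 change of −0.86 (SE 0.24, limma adjusted p = 0.463, DESeq2 adjusted p = 0.0290). It was also called without flox replicate 2 or AKO replicate 2, and not without the other samples. Without the PC1 covariate it was not called, with a change of −0.41 (DESeq2 adjusted p = 0.516). In iWAT, the start site peak chr15:76511700-76512361 had 441, 376 and 342 normalized reads in flox and 466, 356 and 417 in AKO, with a log2 change of 0.10 (SE 0.16, limma adjusted p = 0.822). The smallest p of Dgat1 in iWAT was in intron 1, chr15:76508972-76509791, where 140.4, 179 and 169.6 normalized reads in flox and 123, 171 and 104 in AKO overlapped and the log2 change was −0.32 (SE 0.21, limma adjusted p = 0.518).

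Gpam encodes the mitochondrial glycerol-3-phosphate acyltransferase of the first step and lies at chr19:55067268-55127238. At its most open peak in brown fat, over a start site at chr19:55098609-55100078, there were 1215, 939.9 and 697 normalized reads in flox and 740.2, 593 and 610.2 in AKO mice. Values were lower in AKO mice on average but overlapped, and with the covariate the log2 change was −0.16 (SE 0.22, limma adjusted p = 0.847). Among the 15 Gpam peaks, 12 lay below 0. The smallest p was at a distal peak, chr19:54838858-54839100, 260.5 kb downstream of the start site, which went the other way with 42.8, 60.6 and 20.7 normalized reads in flox and 66.0, 44.4 and 59.5 in AKO and a log2 change of 1.11 (SE 0.39, limma adjusted p = 0.507). The reads at this peak were 16 to 82 per sample, and the groups overlapped. Its limma change was 0.40 without flox replicate 3 and 0.55 without the PC1 covariate. In iWAT, 6 of 8 Gpam peaks lay below 0. The start site peak, chr19:55098726-55099701, had 207, 215 and 244 normalized reads in flox and 188, 263 and 171 in AKO, a log2 change of −0.12 (SE 0.19, limma adjusted p = 0.804). At chr19:55103173-55103824, inside the gene 4.05 kb upstream of that start site, the values were 154, 136 and 139 normalized reads in flox and 114, 95.9 and 100.51 in AKO. All AKO aliquots lay below the flox aliquots there, with a log2 change of −0.46 (SE 0.14, limma adjusted p = 0.203, DESeq2 adjusted p = 0.220), and edgeR called the peak (adjusted p = 0.0948).

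The next step, the acylation of lysophosphatidic acid, is carried out by the enzymes of Agpat2, whose loss causes lipodystrophy, and Agpat3. Agpat2 lies at chr2:26593057-26604417, and its start site peak in brown fat, chr2:26603167-26604996, was its most open, with 2311, 2287 and 1899 normalized reads in flox and 1555, 1147 and 1680.0 in AKO mice. All AKO mice lay under the flox mice, while the log2 change with the covariate was −0.28 (SE 0.19, limma adjusted p = 0.689). The smallest Agpat2 p was 5.34 kb upstream, chr2:26609146-26610204, with 1196, 1186 and 989.6 normalized reads in flox and 914, 739.7 and 688 in AKO. The groups did not overlap at this peak either, and the log2 change was −0.38 (SE 0.21, limma adjusted p = 0.635). Both peaks also overlap the annotated gene Gm20532, as do the iWAT peaks that follow. In iWAT the start site peak, chr2:26603286-26604963, had 630.1, 638 and 686 normalized reads in flox and 634, 790.0 and 643 in AKO and a log2 change of 0.074 (SE 0.14, limma adjusted p = 0.846). The peak 11.2 kb upstream, chr2:26615010-26615972, had 118, 121 and 108 normalized reads in flox and 130.2, 119 and 143 in AKO, and its log2 change was 0.17 (SE 0.14, limma adjusted p = 0.592). The iWAT groups overlapped at both.

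Agpat3 lies at chr10:78269178-78352489. Its brown fat start site peak, chr10:78351243-78352839, had 328, 371 and 407 normalized reads in flox and 407, 382 and 371 in AKO mice, a log2 change of −0.016 (SE 0.19, limma adjusted p = 0.986). A peak 19.4 kb upstream, chr10:78371633-78372095, had 159.9, 216 and 199 normalized reads in flox and 127, 170.0 and 171 in AKO, with overlap and a log2 change of −0.51 (SE 0.22, limma adjusted p = 0.561). In iWAT the start site peak chr10:78351998-78352706 had 135, 177 and 131 normalized reads in flox and 156, 135 and 187 in AKO, a log2 change of 0.11 (SE 0.18, limma adjusted p = 0.818). The iWAT peak with the smallest p, chr10:78360397-78360667, 8.09 kb upstream, had 31.4, 42.2 and 47.3 normalized reads in flox and 26.5, 12.6 and 36.4 in AKO and a log2 change of −0.76 (SE 0.36, limma adjusted p = 0.378). At each of these peaks the genotypes overlapped.

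Lpin1 and Lpin2 encode lipins, the phosphatidate phosphatases that make diacylglycerol. Lpin1, at chr12:16535669-16610966, had 19 brown fat peaks, the most of any member, and 11 of them lay below 0. Over a start site, chr12:16589574-16589895, there were 271, 222 and 129 normalized reads in flox and 197, 158 and 194 in AKO mice, a log2 change of 0.37 (SE 0.24, limma adjusted p = 0.690) that was −0.12 without the covariate. At the most open peak, chr12:16618893-16620797, 8.88 kb upstream, there were 796, 771 and 695 normalized reads in flox and 623, 649 and 665 in AKO. The AKO mice lay below the flox mice there by a small margin, and the log2 change was −0.16 (SE 0.18, limma adjusted p = 0.808). The 1 Lpin1 peak past the DESeq2 threshold, chr12:16395550-16396056, lies 194 kb downstream of the start site, so its assignment rests on nearness alone. It had 80.5, 98.3 and 136 normalized reads in flox and 59.8, 102 and 41.3 in AKO. Its groups overlapped, its log2 change was −1.35 (SE 0.26, limma adjusted p = 0.417, DESeq2 adjusted p = 0.0744), and DESeq2 no longer called it, whichever sample was left out, nor without the PC1 covariate, where the change was −0.65 (DESeq2 adjusted p = 0.451).

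In iWAT, the Lpin1 start site peak chr12:16589657-16589942 had 119, 109 and 126 normalized reads in flox and 118, 112 and 124 in AKO, a log2 change of 0.00045 (SE 0.13, limma adjusted p = 0.999). The most open iWAT peak, chr12:16618632-16619362, 8.03 kb upstream, had 125, 107 and 129.97 normalized reads in flox and 159, 104 and 104 in AKO and a log2 change of −0.0071 (SE 0.20, limma adjusted p = 0.991). The smallest p was in intron 10, chr12:16562813-16563592, with 77.7, 66.7 and 104 normalized reads in flox and 98.0, 112 and 111 in AKO and a log2 change of 0.39 (SE 0.19, limma adjusted p = 0.382). The genotypes overlapped at these peaks. Lpin2, at chr17:71182560-71249817, had 492, 429 and 344 normalized reads in flox and 383, 388 and 425 in AKO mice at its brown fat start site peak, chr17:71182955-71183881, a log2 change of 0.13 (SE 0.20, limma adjusted p = 0.874). At chr17:71251239-71251676, past the end of the gene, there were 101.37, 69.5 and 59.5 normalized reads in flox and 100, 98.5 and 83.5 in AKO, a log2 change of 0.54 (SE 0.26, limma adjusted p = 0.596). In iWAT its start site, chr17:71183266-71183798, had 155, 201 and 176 normalized reads in flox and 168, 179 and 187 in AKO, a log2 change of 0.013 (SE 0.15, limma adjusted p = 0.976). Again these groups overlapped. A peak in Lpin2 intron 1, chr17:71200355-71200433, had 4.28, 5.56 and 2.58 normalized reads in flox and 10.4, 9.13 and 8.55 in AKO, from 3 to 9 reads per aliquot. Every AKO aliquot was above every flox aliquot, with a log2 change of 1.05 (SE 0.23, limma adjusted p = 0.151), and DESeq2 gave no adjusted p.

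Mogat1, at chr1:78510991-78538173, encodes another monoacylglycerol acyltransferase and had 3 peaks in brown fat, all within −0.10 to −0.083 on the log2 scale. Its start site peak, chr1:78510852-78512186, which also overlaps BC035947, had 337, 313 and 327 normalized reads in flox and 285, 294 and 324 in AKO mice and a log2 change of −0.090 (SE 0.18, limma adjusted p = 0.902). The peak over exon 6, chr1:78536574-78538692, had 651, 623 and 662 normalized reads in flox and 571, 427 and 612 in AKO, a log2 change of −0.10 (SE 0.21, limma adjusted p = 0.911), with no overlap of the values. The same places in iWAT, chr1:78511038-78512161 and chr1:78536851-78538007, overlapped. The former had 118, 100.1 and 107 normalized reads in flox and 111, 112 and 115 in AKO, a log2 change of 0.062 (SE 0.13, limma adjusted p = 0.858). The latter had 177, 209 and 239 normalized reads in flox and 205, 151 and 188 in AKO, a log2 change of −0.20 (SE 0.18, limma adjusted p = 0.637).

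Summed over the peaks of a gene, normalized reads in brown fat were lower in every AKO mouse than in every flox mouse for Dgat2, Mogat2, Agpat2 and Dgat1. Among all 17116 genes with a brown fat peak, 8.43% had sums lower in every AKO mouse and 8.97% higher in every one. The sums of Dgat2 were 4031 ± 150.1 in flox and 2639 ± 110.4 in AKO (SD, n = 3), a ratio of 0.655, and those of Mogat2 were 2978 ± 238 in flox and 2082 ± 89.6 in AKO, a ratio of 0.699. Agpat2 had 4344 ± 419.7 in flox and 3183 ± 350.3 in AKO, and Dgat1 had 2591 ± 141 in flox and 2033 ± 197 in AKO. The ratios of these 2 genes were 0.733 and 0.785. None of these sums was adjusted for PC1. With the covariate, the limma log2 change of the start site peak was −0.28 at Agpat2 and 0.036 at Dgat1, where the groups overlapped. Beside them, the ratio of the adipocyte marker sum was 0.782 and that of the brown adipocyte marker sum 0.620, and their part in these ratios was not tested. The sums overlapped for the other 5 genes, whose ratios ran from 0.793 (Gpam) to 1.02 (Lpin2). Per kb of peak and over all brown fat samples, Agpat2 was the most open gene (818 normalized reads per kb), followed by Dgat1 (651), Dgat2 (540.1) and Mogat2 (439), and this order held within flox and within AKO. Lpin2 (266) and Mogat1 (251) were lowest over all samples, and their order differed between the genotypes.

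**Figure D4:**
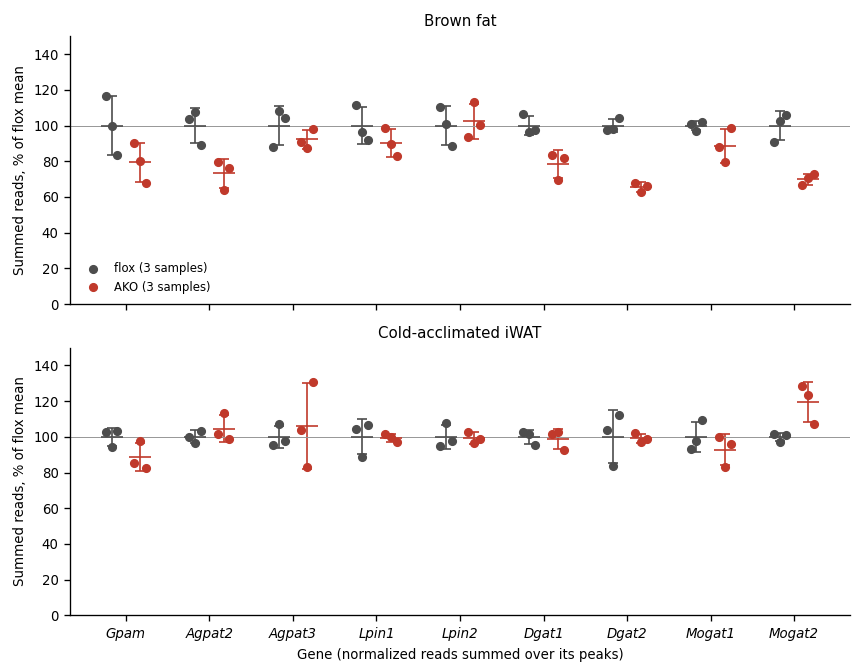
Normalized reads summed over the peaks of each gene, not adjusted for PC1, as percent of the flox mean (vertical axis, starting at 0), in brown fat (top) and iWAT (bottom). Points are samples (3 flox, gray, and 3 AKO, red), and bars are mean ± SD. In brown fat the AKO points of Agpat2, Dgat1, Dgat2 and Mogat2 lie below all flox points, and in iWAT those of Mogat2 lie above them.

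In cold-acclimated iWAT the member peaks were spread to both sides of 0. Of 42 peaks, 19 were below 0 and 23 above, with a median log2 change of 0.0190 against −0.000888 for all iWAT peaks. Limma called 0 member peaks and 0% of all peaks, with 1 member peak lower and 2 higher at an unadjusted p under 0.05, against 7.42% and 7.61% of all peaks. DESeq2 called 0 lower and 1 higher, against 0.63% and 0.546%, and edgeR called 1 lower and 1 higher, against 2.52% and 2.15%. At 1 peak every AKO aliquot was below every flox aliquot and at 2 above, where all peaks gave 10.3% and 10.6%. Beside this, AKO aliquots had lower sums of immune markers (204 to 280.1 against 306 to 362, 4 of 5 markers with peaks, without Cd68) and endothelial markers (671 to 739.9 against 766 to 855, 4 of 5, without Emcn). The sums of adipocyte markers (2821 to 3089 against 2736 to 3513) and brown adipocyte markers (1219 to 1319.8 against 1108 to 1308) overlapped, as did those of fibroblasts (1313 to 1501 against 1343 to 1498) and skeletal muscle (235 to 304 against 243 to 285, 2 of 5 markers with peaks). The part of the marker shifts in these counts was not tested.

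The iWAT peak called by DESeq2 was the one over the Mogat2 start site, chr7:99238493-99238787. It had 54.2, 54.5 and 66.3 normalized reads in flox and 109.5, 85.6 and 112 in AKO. Every AKO aliquot was above every flox aliquot, and the log2 change was 0.80 (SE 0.16, limma adjusted p = 0.151, DESeq2 adjusted p = 0.0550), with an edgeR adjusted p of 0.0149. With any 1 of the 6 aliquots left out, DESeq2 no longer called it, and its DESeq2 log2 change lay between 0.74 and 0.93. The most open Mogat2 peak in iWAT, chr7:99228916-99230341 in intron 2, had 279, 249 and 287 normalized reads in flox and 320.4, 331 and 265 in AKO, with overlap and a log2 change of 0.16 (SE 0.15, limma adjusted p = 0.636). Over the 4 Mogat2 peaks the sums were 630.3 ± 14.4 in flox and 754 ± 70.6 in AKO, a ratio of 1.196, and every AKO aliquot was above the flox aliquots, as held for 10.6% of all 15963 genes with an iWAT peak (10.8% below). Mogat2 was the 1 of 9 members with such sums in iWAT.

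Dgat2 in iWAT did not separate the genotypes. The start site peak, chr7:99182467-99183192, had 304, 231 and 331 normalized reads in flox and 260.5, 269 and 252 in AKO, a log2 change of −0.13 (SE 0.17, limma adjusted p = 0.751). The smallest p was in intron 2, chr7:99168114-99168282, with 44.9, 42.2 and 49.9 normalized reads in flox and 47.3, 63.9 and 65.2 in AKO and a log2 change of 0.35 (SE 0.17, limma adjusted p = 0.386). The sums over 6 peaks were 513 ± 76.0 in flox and 509.7 ± 12.9 in AKO, a ratio of 0.993. Of the 10 Dgat2 and Mogat2 peaks in iWAT, 9 lay above 0 (median 0.18), which became 6 of 10 without flox replicate 2 or AKO replicate 1. With a PC1 covariate the count was 5 of 10, but the PC1 score separated the genotypes in iWAT, so that fit cannot tell PC1 and genotype apart. For the 7 genes other than Dgat2 and Mogat2, the sums overlapped in iWAT, with ratios from 0.885 (Gpam) to 1.06 (Agpat3).

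The tissues were normalized separately, so their values were set side by side with no test. With an overlap of at least 1 bp, 38 pairs joined 34 of the 69 brown fat peaks (49.3%) with 38 of the 42 iWAT peaks (90.5%). The log2 change was below 0 in brown fat and above 0 in iWAT in 17 pairs, below 0 in both in 13, above 0 in both in 6, and above 0 in brown fat alone in 2. Among the 10 pairs at Dgat2 and Mogat2, 9 were of the first kind. Of these, iWAT changes at Dgat2 of 0.025 (SE 0.17), 0.061 (SE 0.29) and 0.038 (SE 0.20) were smaller than their SE, while the other iWAT changes exceeded theirs. The brown fat Dgat2 peak 5.51 kb upstream was paired with separate iWAT peaks, so these pairs are not independent. At the Mogat2 peak 23.3 kb downstream, the brown fat change of −0.88 stood beside 0.20 (SE 0.18) in iWAT, where the values were 174, 161 and 128 normalized reads in flox and 212, 162 and 158 in AKO. At the Dgat2 start site both changes were below 0. The Dgat2 intron 1 peak and the upstream peaks 19.5 and 21.6 kb away, all called by DESeq2 in brown fat, overlapped no iWAT peak of a member. In none of the 38 pairs did the genotypes separate without overlap in both tissues. Neither this count nor the split by direction was made for all overlapping peaks, so both stand without a background.

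**Figure D5:**
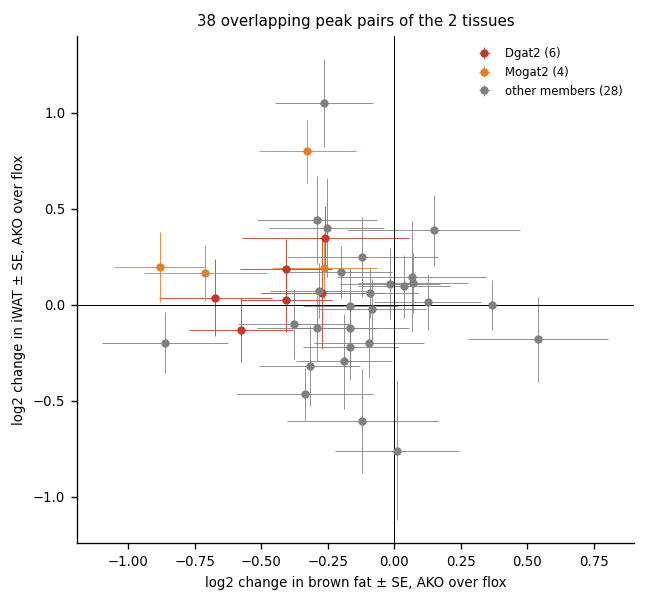
Limma log2 change ± SE in brown fat (horizontal axis) and in iWAT (vertical axis), AKO over flox, for the 38 pairs of overlapping peaks of member genes. Red marks Dgat2 (6 pairs), orange Mogat2 (4) and gray the other members (28). The Dgat2 and Mogat2 points lie left of 0, and 9 of these 10 lie above 0 in iWAT.

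Matches to the PPAR element with up to 3 mismatches in its 12 letters, on either strand of the central 300 bases, were present at 32 of 69 brown fat member peaks (46.4%) and at 32.3% of all brown fat peaks. In iWAT they were present at 12 of 42 (28.6%) and at 28.5% of all peaks. With up to 2 mismatches, 5 brown fat members (7.25%) and 6.41% of all peaks matched, as did 2 iWAT members (4.76%) and 5.17% of all. The 32 matched brown fat peaks had a median log2 change of −0.27, with 6 of the 9 DESeq2 calls, and the 37 others had −0.16. All 6 of these calls were at Dgat2 and Mogat2, whose peaks are not separate observations. The same split of all brown fat peaks was not made, so a link between matches and change was not tested. The C/EBP motif TTGCNNAA was found at 12 brown fat members (17.4%, all peaks 15.1%) and 5 iWAT members (11.9%, all peaks 13.97%), and the EBF motif (TCCC and GGGA with 2 bases between) at 0 of either (all peaks 2.40% and 1.69%). Motifs were searched on both strands, each on its own, and 2 brown fat members held both a PPAR and a C/EBP match.

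The remaining genes of the pathway, a list of 23 that includes other acyltransferases, acyl-CoA synthetases, fatty acid carriers, the glycerol supply and lipid droplet proteins, were counted in the same way. In brown fat 18 of the 23 had 91 peaks, of which 62 lay below 0 (median −0.059), and limma, DESeq2 and edgeR called 0. At an unadjusted p under 0.05, 9 were lower and 2 higher, against 5.59% and 3.46% of all peaks. At 28 of 91 peaks all AKO mice lay under all flox mice and at 4 above, against 8.84% and 8.77% of all peaks. Without the PC1 covariate DESeq2 called 8 of the 91 lower and 1 higher, against 0.517% and 0.512%. The list shares Plin1 with the adipocyte markers. The peak lower by the smallest p was one of Acsl5, a long-chain acyl-CoA synthetase, at chr19:55250118-55250727, with 146, 183 and 199 normalized reads in flox and 107, 174 and 108 in AKO mice, a log2 change of −0.90 (SE 0.18, limma adjusted p = 0.431, DESeq2 adjusted p = 0.132). The peak higher by the smallest p was one of Agpat4, at chr17:12216372-12217122, with 57.0, 54.7 and 88.0 normalized reads in flox and 119, 164 and 113 in AKO and a log2 change of 0.57 (SE 0.21, limma adjusted p = 0.522, DESeq2 adjusted p = 0.783). The Acsl5 values overlapped and the Agpat4 values did not. In iWAT 19 of the 23 genes had 64 peaks, with 31 below 0 (median 0.019). Limma and DESeq2 called 0 of these and edgeR 1 lower and 2 higher, against 2.52% and 2.15% of all peaks. At an unadjusted limma p under 0.05, 3 were lower and 7 higher, against 7.42% and 7.61%. At 2 peaks all AKO aliquots lay below all flox aliquots and at 9 above, against 10.3% and 10.6%. The lower one by the smallest p was at Lpin3, chr2:160887341-160887589, with 54.9, 54.5 and 62.0 normalized reads in flox and 34.6, 38.8 and 38.5 in AKO, a log2 change of −0.60 (SE 0.13, limma adjusted p = 0.151, DESeq2 adjusted p = 0.342). The higher one was at Acsl1, chr8:46429970-46430241, with 31.4, 33.4 and 36.2 normalized reads in flox and 53.0, 69.6 and 54.5 in AKO, a log2 change of 0.79 (SE 0.15, limma adjusted p = 0.151, DESeq2 adjusted p = 0.177). Neither of these iWAT peaks had overlapping groups.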

How the data were processed

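ATAC-seq was analyzed in 12 samples, 3 flox and 3 AKO in each of 2 tissues. The authors aligned reads to mm10 with BWA 0.7.17-r1188, marked duplicates with Picard 2.8.14, called broad peaks per sample with MACS2 2.1.1.20160309, kept those found in 2 or more of a genotype's 3 replicates and counted reads with bedtools 2.27.1. The iWAT reads were trimmed to the length of the brown fat reads. The deposited values are a signal, reads per peak divided by a DESeq2 size factor per sample, with no pooling of replicates, and the tissues were normalized separately. Dividing by the value of 1 read gave whole reads for 100.0% of values (largest deviation 3.3e-06). Columns with the authors' own fold changes and p-values were not used, and 0 columns of other samples were left out.

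Log2(normalized reads + 1) was fitted over all peaks with limma 3.58.1 (R 4.3.3), two-sided, with p-values adjusted after Benjamini and Hochberg and called under 0.1. The model held genotype and, in brown fat, the PC1 score. DESeq2 1.42.0 and edgeR 4.0.16 on the recovered reads, other normalizations (total reads in peaks, TMM), pseudocounts of 0.1 and 10, a minimum of 10 reads in every sample, a replicate block and each sample left out were alternatives, of which the DESeq2 fits with a sample left out, those of DESeq2 and edgeR without PC1, the block without PC1, the threshold of 0.05 for DESeq2 calls, TMM for counts of peaks without overlap and the alternatives for summed peaks were chosen after seeing the data. The scripts were tested on simulated data. Each peak was described by GENCODE M21 gene models and by the mm10 sequence of RefSeq. Named in full were, per gene and tissue, the peaks at the start site, with the smallest limma p and with the highest mean signal, and every called peak. The genes and lists were chosen with earlier results of these data known.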

Additional observations from a re-analysis of the deposited data

Results flagged for a closer look

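The summed normalized reads of Mogat2 went in opposite directions in the tissues. The AKO over flox ratio was 0.699 over 6 peaks in brown fat, where every AKO mouse lay below every flox mouse, and 1.196 over 4 peaks in iWAT, where every AKO aliquot lay above every flox aliquot. Among all genes with a peak, 8.43% had such lower sums in brown fat and 10.6% such higher sums in iWAT. The share of genes with both was not counted. The DESeq2 call at the Mogat2 start site in iWAT was lost with any aliquot left out. The difference between the tissues was not tested, since the tables were normalized separately, the peaks differ and the iWAT samples are aliquots of 1 pool per genotype.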

How the results depend on the processing

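Limma called 0 member peaks in both tissues under each normalization, filter, pseudocount, block and left-out sample tried. It also called 0 of all peaks in the main fit, with total reads in peaks, with TMM factors and, in brown fat, without PC1. The counts are thus not particular to the members, and calls over all peaks were not counted for the other settings. In brown fat DESeq2 called 9, edgeR 2 and DESeq2 without PC1 3, and at a DESeq2 threshold of 0.05 the calls were 5. With a sample left out DESeq2 called 0 (without flox replicate 3) to 6. The shares of all peaks called with a sample left out or at the threshold of 0.05 were not counted. In iWAT edgeR called 2 and DESeq2 1, and 0 at a threshold of 0.05 or with any sample left out. Of the other pathway genes, DESeq2 without PC1 called 9 peaks in brown fat, 8 lower and 1 higher against 0.517% and 0.512% of all peaks, and edgeR called 3 in iWAT. The median change of the brown fat member peaks was −0.28 with the replicate block, and −0.30 to −0.17 with a sample left out, and that of iWAT −0.050 (without flox replicate 2) to 0.044. An overlap of 50% of both peaks left 19 pairs, and up to 2 mismatches left 5 brown fat and 2 iWAT matches. Deviations of same-numbered samples from their genotype means correlated at 0.494, 0.0632 and −0.236 in brown fat and −0.0387 to −0.0566 in iWAT. Differently numbered samples in brown fat gave −0.538 to 0.481. With 3 samples per genotype, these values cannot decide whether the replicate numbers pair the samples. The replicate block called 0 member peaks in either tissue. In brown fat, AKO replicate 2 had the fewest reads, which limits its low peaks. The main limma fit called 0% of all peaks, so a named peak could gain a call under an alternative but could not lose one. Staying uncalled is therefore no measure of stability. Of 698 alternatives over 42 named peaks, 633 kept direction and side of the threshold, 17 became calls and 48, at 15 peaks, turned direction. None of the latter peaks was called, and the cause was not tested. In iWAT the PC1 score separated the genotypes (−41.4 to −30.9 in flox, 29.4 to 37.8 in AKO), so a fit with it cannot tell PC1 and genotype apart. By the first base of the peak, with the limma log2 change in brackets, these were as follows. Agpat3 78351243 in brown fat (−0.016) took 0.074 (no PC1 covariate and replicate block without PC1), 0.080 (edgeR without PC1), 0.075 (DESeq2 without PC1) and −0.15 to 0.12 with a sample left out. Lpin1 16589574 in brown fat (0.37) took −0.12 (no PC1 covariate and replicate block without PC1), −0.18 (edgeR without PC1), −0.19 (DESeq2 without PC1) and −0.064 to 0.51 with a sample left out. Lpin2 71182955 in brown fat (0.13) took −0.065 (no PC1 covariate and replicate block without PC1), −0.077 (edgeR without PC1), −0.084 (DESeq2 without PC1) and −0.10 to 0.29 with a sample left out. Dgat1 76511462 in brown fat (0.036) took −0.39 (no PC1 covariate and replicate block without PC1), −0.0010 (total reads in peaks), −0.00089 (replicate block), −0.37 (edgeR without PC1), −0.37 (DESeq2 without PC1) and −0.022 to 0.11 with a sample left out. Mogat1 78510852 in brown fat (−0.090) took −0.17 to 0.0098 with a sample left out. Mogat1 78536574 in brown fat (−0.10) took −0.21 to 0.16 with a sample left out. Mogat2 99238474 in brown fat (−0.33) took 0.031 (no PC1 covariate and replicate block without PC1), 0.030 (edgeR without PC1), 0.024 (DESeq2 without PC1). Gpam 55098726 in iWAT (−0.12) took −0.30 to 0.0051 with a sample left out. Agpat2 26603286 in iWAT (0.074) took −0.69 (PC1 covariate) and −0.028 to 0.13 with a sample left out. Agpat3 78351998 in iWAT (0.11) took −0.013 to 0.25 with a sample left out. Agpat3 78360397 in iWAT (−0.76) took 0.25 (PC1 covariate). Lpin1 16589657 in iWAT (0.00045) took −0.0032 (edgeR), −0.0036 (DESeq2) and −0.055 to 0.047 with a sample left out. Lpin1 16618632 in iWAT (−0.0071) took 0.0089 (edgeR), 0.011 (DESeq2) and −0.21 to 0.10 with a sample left out. Lpin2 71183266 in iWAT (0.013) took −0.70 (PC1 covariate) and −0.081 to 0.11 with a sample left out. Mogat2 99228916 in iWAT (0.16) took −0.69 (PC1 covariate).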
